A study of Homo sapiens with 4 samples.

Results

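The comparison set MM.1S cells after 24 h of MLN4924 against their control, gene by gene. MM.1S is an established line of human multiple myeloma, a cancer of antibody-secreting plasma cells. The control cells had received the vehicle DMSO, with no culture time given, and the treated cells 250 nM MLN4924 for 8, 16 or 24 h. Total RNA from each of the 4 cultures was read on 1 Affymetrix array. Each gene was represented by the strongest of the probe sets assigned to it alone, and was kept where that probe set's mean lay above the median of all probe sets. This held for 12446 of 19775 genes, and the other 7329 genes lay below the limit. Each difference is the log2 intensity on the 24 h array minus that on the control array, so 1 stands for a doubling. With 1 array on each side there was no test and no spread between cultures, and treatment cannot be told apart from time in culture.

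MLN4924 inhibits the enzyme that activates NEDD8, a small protein related to ubiquitin. NEDD8 is joined to cullins, the scaffolds of the cullin-RING ubiquitin ligases, and without it these ligases stop marking proteins for the proteasome. Their substrates include NRF2, the transcription factor of antioxidant genes, the licensing factor CDT1, hypoxia-inducible factors, the NF-kB inhibitor proteins and the cell cycle inhibitor p27. The question was what the transcript profile looked like at the end of the course.

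Markers of plasma cells and myeloma gave strong to weak signal on both arrays. Of 35 plasma cell and myeloma markers 33 were measured, and the summed intensity of all 35 was 158994 on the control array and 155413 at 24 h. TNFRSF17, the receptor BCMA, read 8763 in the control and 9658 at 24 h, and XBP1, a transcription factor of secretory cells, 9978 in the control and 10030.3 at 24 h. MAF read 8882 in the control and 8035 at 24 h, and ITGB7 19294 and 17265. CD38 was weaker (352 and 432), MZB1 read 8119 and 5885, and CD200 and FCRL5 lay below the limit. Of the 33 measured, 23 were above 0 at 24 h and 10 below. Of markers of other cells, 2 of 4 for B cells, 2 of 7 for T and NK cells, 1 of 7 for myeloid cells, 1 of 6 for stromal fibroblasts, 1 of 2 for erythroid cells and 2 of 4 for endothelial cells were measured. The ones with the strongest signal were HBB, a globin (1079.7 and 1219 in the control and at 24 h), CD22 of B cells (244 and 249.5), PECAM1 of endothelium (235 and 256) and COL1A1 of fibroblasts (218 and 218). Among the low ones were CD14 of myeloid cells (41.9 and 42.3) and MS4A1, the B cell antigen CD20 (74.1 and 84.0). Summed intensities in the control and at 24 h were 575 and 559.6 for B cells, 478 and 511 for T and NK cells, 425 and 475 for myeloid cells, 600.4 and 591 for fibroblasts, 1158 and 1299.9 for erythroid cells and 472 and 482 for endothelium. The sums cover different numbers of genes and are not compared between cell types. Median intensities of the 4 arrays lay between 92.2 and 95.4. The 24 poly-A control probe sets, which report RNA added by the laboratory, had a median difference of 0.21 and lay between 0.00050 and 0.40, and the 18 hybridisation control probe sets a median of -0.060. The 3' to 5' signal ratio was 2.21 on the control array and 1.99 at 24 h for ACTB, and 1.19 and 1.22 for GAPDH. The part of these controls in the results was not tested.

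Most genes differed little at 24 h. The median difference of all 12446 genes was 0.016, the quartiles were -0.15 and 0.18, and 7293 genes (58.6%) lay within 0.2 of 0. There were 64 genes at least 2-fold higher (0.514% of those measured) and 24 at least 2-fold lower (0.193%), so 72.7% of these genes were on the higher side. With each array centred on its median the counts were 57 and 35, and the higher share 62.0%. At 1.5-fold there were 355 genes higher (2.85%) and 287 lower (2.31%). Above 0 lay 52.6% of the genes and below 0 47.4%, and these shares are the background for the gene groups that follow. The members of those groups were chosen with earlier results of these data known, so their counts are descriptions. As a stand-in for technical spread, the pooled SD between probe sets of 1 gene was 0.180 in the 5719 genes that had several. In RNA from a whole culture, fewer cells with a transcript and less of it in each cell cannot be told apart.

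**Figure D1:**
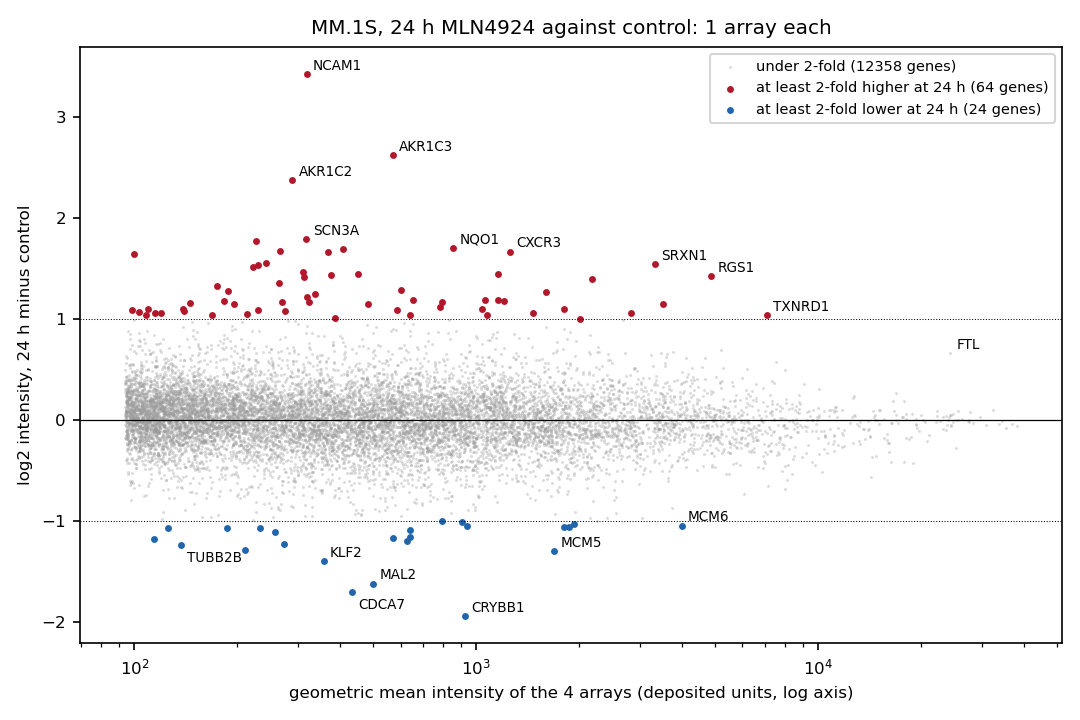
The log2 difference of the 24 h array from the control array (vertical axis) for each of the 12446 measured genes, against the geometric mean intensity of the 4 arrays in deposited units (horizontal, log axis). Red points are the 64 genes at least 2-fold higher and blue points the 24 at least 2-fold lower, dotted lines mark 2-fold, and the higher genes reach further from 0 (NCAM1 at 3.43) than the lower ones (CRYBB1 at -1.94).

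The higher and the lower genes had different control intensities, a contrast that the way they were selected favours. The 64 higher genes had a median control intensity of 196, with a range of 65.2 to 3792, and 11 of them lay below the median of the control array. For those 11 the size of the difference is uncertain. The 24 lower genes had a median control intensity of 949.96 and none lay below the control array's median, although FUT9 and ALDH1L2 lay below that of the 24 h array. The filter used the mean over all arrays, treated ones included. A gene with a low control value could pass it through higher treated values, but hardly if it was at least 2-fold lower. Values under 48.4 were set to it, so no gene at least 2-fold lower could lie below the control array's median. The control value is also part of the difference. At the same mean of the 2 arrays a higher gene therefore has a lower control value than a lower gene. The counts below the control median therefore say little about the genes. Whether the control intensities differ beyond these effects of selection was not tested. A second measured probe set existed for 28 of the higher genes, and in 17 of these another probe set was at least 2-fold higher too, while 5 had one of the opposite sign. Of the lower genes 9 had a second probe set, 5 of them with another at least 2-fold lower and 0 with one of the opposite sign. Just inside the 2-fold limit were YPEL5 (1.04), OAS1 (1.01) and MIAT (1.003), and just outside it RNF44 (0.998), COLCA1 (0.996) and FAM13A (0.992). On the lower side UHRF1 (-1.03), E2F2 (-1.01) and CDC45 (-1.0) were the last inside, and POLE2 (-0.998), TNFRSF21 (-0.998) and MCM3 (-0.997) the nearest outside.

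**Figure D2:**
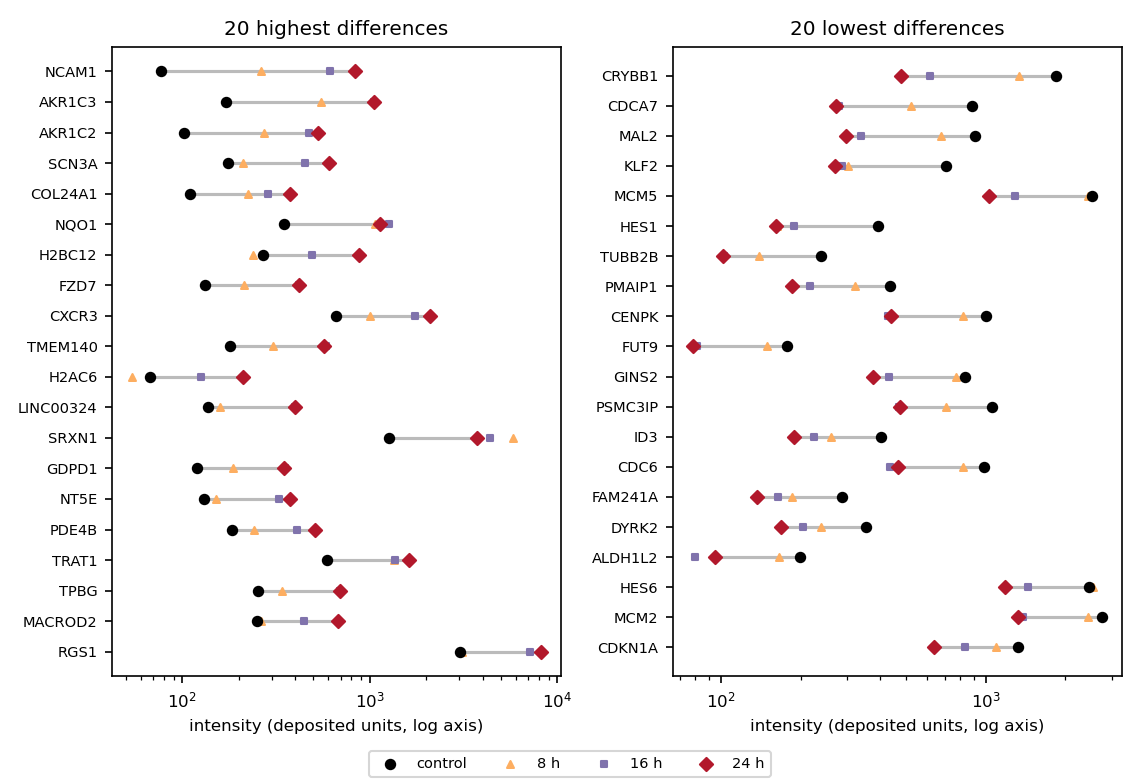
Intensity in deposited units (log axis) on the control, 8, 16 and 24 h arrays of the 20 genes with the highest (left) and the 20 with the lowest (right) difference at 24 h, 1 point per array. NCAM1 goes from 77.4 on the control array to 832 at 24 h and CRYBB1 from 1840.4 to 480.1, while SRXN1 is highest at 8 h (5834).

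Antioxidant genes had the highest median of the gene lists with at least 5 measured members. The 29 measured targets of NRF2 had a median of 0.35, against 0.016 for all genes, with 24 above 0, 6 at least 2-fold higher and none at least 2-fold lower. The 6 were AKR1C3, AKR1C2, NQO1, SRXN1, AKR1C1 and TXNRD1. At 8 and 16 h the list's medians were 0.63 and 0.47. The 3 times share the control array, so their values are given side by side and not compared.

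NQO1, a quinone reductase, read 348 in the control and 1069, 1275 and 1136 at 8, 16 and 24 h. Each treated array was thus above the control, and at 24 h NQO1 was 3.26-fold higher, with its other probe sets at 1.56 and 1.62. SRXN1, which reduces overoxidised peroxiredoxins, read 1276 in the control and 5834, 4388 and 3737 at 8, 16 and 24 h. Its highest value was on the 8 h array, and 2.93-fold was left at 24 h. TXNRD1, the cytosolic thioredoxin reductase, read 3792 in the control and 10501, 8036 and 7809 at 8, 16 and 24 h, in the same order (1.04 at 24 h). The aldo-keto reductases, which reduce steroid and aldehyde carbonyls, were in a different order. AKR1C3 read 172 in the control and 551, 1056 and 1061 at 8, 16 and 24 h, and was 6.17-fold higher at the last time. AKR1C2 (2.38) and AKR1C1 (1.42, 0.68 with the median over its probe sets) are close in sequence to it, and how far the probe sets of the 3 genes cross-react is not known here. Below 2-fold stood GSR, glutathione reductase (1070.2 in the control and 1957 at 24 h), and the NADPH producers ME1 (0.67) and TKT (0.67). FTL, the ferritin light chain that stores iron, read 16981 in the control and 26919 at 24 h. That was the largest gain in intensity units of any measured gene, at 0.66 on the log2 scale, with another probe set at 0.81. HMOX1, which breaks down heme, read 92.2 in the control and 77.6 at 24 h, at and below the array medians, and the drug exporter gene ABCC1 stood at -0.29.

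The promoters of NQO1 and TXNRD1 are shown because both genes were at least 2-fold higher, in the highest list, and because their letters hold a match. For TXNRD1 a start with a match was taken. AKR1C3, AKR1C2, SRXN1 and AKR1C1, also at least 2-fold higher, are not shown. Each line gives the 200 bases before a RefSeq transcription start, 5' to 3' on the gene's strand, with capitals on the letters TGACNNNGC or TGAGNNNGC, the core of the antioxidant response element, on either strand. The NQO1 stretch lies at chr16:69726561-69726760 on the minus strand and the TXNRD1 stretch, of 1 of 2 listed starts, at chr12:104215579-104215778 on the plus strand, both in GRCh38.p14.
NQO1: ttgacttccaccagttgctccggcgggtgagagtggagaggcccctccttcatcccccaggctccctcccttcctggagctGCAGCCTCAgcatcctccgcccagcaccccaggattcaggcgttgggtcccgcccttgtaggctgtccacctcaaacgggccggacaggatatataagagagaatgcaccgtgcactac
TXNRD1: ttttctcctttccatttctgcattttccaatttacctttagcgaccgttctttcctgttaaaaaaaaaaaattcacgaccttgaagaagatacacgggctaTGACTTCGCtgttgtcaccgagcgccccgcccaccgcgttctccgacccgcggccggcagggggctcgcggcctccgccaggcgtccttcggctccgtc
Within 250 bases before the start, these letters stood in 14 of the 29 promoters listed for 23 NRF2 targets (48.3%). They stood in 25.9% of the 14497 promoters of measured genes and in 23.9% of all 35116 promoters, so they are common, and in 18 of the 83 promoters of the genes at least 2-fold higher (21.7%). In the other lists searched they stood in 20 of the 53 promoters of mitosis genes (37.7%), 9 of the 33 of polymerase and fork genes (27.3%) and 7 of the 30 of origin and helicase genes (23.3%). A match is a description of the letters and not a binding site.

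Genes of the cell surface and of signals received there were among those with the largest differences. NCAM1, the adhesion molecule CD56 that many myelomas carry, read 77.4 in the control and 262, 612 and 832 at 8, 16 and 24 h. Its control value lay below the median of its array, so the 10.8-fold difference is of uncertain size. Its other 3 probe sets ranged from 0.096 to 3.09, and the median over all 4 was 1.92. Of 14 measured chemokine and purine receptor genes of lymphocytes, with their regulators, 5 were at least 2-fold higher, and the median was 0.22. Of all measured genes 0.514% were at least 2-fold higher. The list was written with earlier results of these data known, so its count is only a description. CXCR3, a receptor for interferon-induced chemokines, read 659 in the control and 1005, 1755 and 2099 at 8, 16 and 24 h, with a second probe set at 1.18. CCR2, a receptor for monocyte-attracting chemokines, read 258 in the control and 163, 451 and 583 at 8, 16 and 24 h, lowest on the 8 h array. P2RY10, another G protein-coupled receptor of lymphocytes, read 902 in the control and 2175 at 24 h, and 2 other probe sets were at least 2-fold higher too. RGS1, which shuts off the G proteins behind such receptors, read 3043 in the control and 3116, 7209 and 8172 at 8, 16 and 24 h. The 8 h value of RGS1 was near the control and the later ones more than 2-fold above it. NT5E (CD73), which makes adenosine outside the cell, stood at 1.52. The purine-gated channel gene P2RX5 (-0.69), CXCR4 (-0.48) and CCR10 (-0.40) were on the other side.

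Other surface and signalling genes at least 2-fold higher had various roles. FZD7, a receptor of Wnt proteins, read 132 in the control and 422 at 24 h, with a second probe set at 1.36, and TPBG, a membrane protein that dampens Wnt signals, 253 in the control and 691 at 24 h. PIK3CG, the catalytic subunit of a lymphoid phosphoinositide kinase, read 1199 in the control and 2569 at 24 h and had 2 further probe sets at 1.17 and 1.18. TRAT1, an adaptor of the T cell receptor, was already at 1352 at 8 h against 594 in the control, and at 1628 at 24 h. The sodium channel gene SCN3A read 176 in the control and 212, 452 and 609.8 at 8, 16 and 24 h, the collagen gene COL24A1 109.8 in the control and 375 at 24 h, and CLEC7A, the receptor dectin-1, 1122 in the control and 2341 at 24 h, with its 3 other probe sets between 0.59 and 0.80. PDE4B, which breaks down cyclic AMP, stood at 1.47, but at 0.35 in its second probe set and at 0.91 with the median over both. The purine enzyme gene AMPD1 read 1435 in the control and 1319, 3112 and 3780.3 at 8, 16 and 24 h. TDO2 and KMO, enzymes of tryptophan breakdown, stood at 1.15 and 1.08, the second with another probe set at 0.72. The lists that hold NCAM1 and SCN3A had few such genes. Of 23 integrin and adhesion genes 18 were above 0 with a median of 0.17 and only NCAM1 at least 2-fold higher, and of 24 ion channel genes 18 were above 0 with a median of 0.084 and SCN3A alone at least 2-fold higher. MACROD2, an enzyme that removes ADP-ribose from proteins, read 251 in the control and 262, 449 and 678 at 8, 16 and 24 h, and TMEM140, a membrane protein, 180.5 in the control and 304, 584 and 572 at 8, 16 and 24 h. FUT9, which adds fucose to surface sugars, read 178 in the control and 149, 81.1 and 78.8 at 8, 16 and 24 h, with the later values below the array medians.

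Among mTOR regulators and FOXO targets, genes tied to nutrient and growth signals, more stood higher than lower. Of 26 measured mTOR regulators and FOXO targets 17 were above 0, 9 were at least 1.5-fold higher and none 1.5-fold lower, and the median was 0.23. CCNG2, a cyclin that slows the cycle, read 505 in the control and 597, 1120.2 and 1098 at 8, 16 and 24 h. All 3 of its other probe sets were at least 2-fold higher too, from 1.12 to 1.18. RICTOR, a subunit of the second mTOR complex, stood at 0.81, TRIB1, a pseudokinase, at 0.76, the insulin receptor substrate IRS1 at 0.74 and SESN3, a sestrin that holds mTOR back, at 0.74. MTOR itself stood at -0.34, and the mTOR inhibitor genes SESN2 and DDIT4 at -0.29 and -0.084. HBP1, a repressor of growth genes, read 694 in the control and 1585 at 24 h, with its other 2 probe sets at 0.29 and 0.90. TP53INP1, an autophagy and p53 response gene, read 2187 in the control and 2969, 4850.4 and 4875 at 8, 16 and 24 h, but its second probe set stood at -0.14 and the median over both at 0.51. BTG1, which slows proliferation, read 4342 in the control and 7024 at 24 h.

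Autophagy and lysosome genes were on the same side. Of 33 autophagy genes 24 were above 0, 6 were at least 1.5-fold higher and none lower, with a median of 0.24. BNIP3L, a receptor that brings mitochondria to autophagosomes, read 454 in the control and 848 at 24 h. NBR1, a receptor for ubiquitinated cargo, read 827 in the control and 1461 at 24 h, but its second probe set stood at 0.26. WIPI1, a phosphoinositide binder of the early autophagosome, read 524 in the control and 838 at 24 h, with a second probe set at 0.62. GABARAPL1, a protein that coats the autophagosome, stood at 0.74 from a control value below the array median. Of 40 lysosome genes 30 were above 0 and 4 at least 1.5-fold higher, with a median of 0.13. ATP6V0A1, a subunit of the proton pump that acidifies the lysosome, read 422 in the control and 824 at 24 h. Its second probe set stood at 0.001, so the 2 probe sets do not give the same difference. The hydrolase gene GLA, alpha-galactosidase, stood at 0.79, the protease gene CTSS at 0.78 and TFE3, a transcription factor of lysosome genes, at 0.63. A second probe set stood at 0.63 for CTSS but at 0.028 for TFE3. MCOLN1, a lysosomal calcium channel, stood at -0.51. The 22 hypoxia-inducible genes had a median of 0.24, with 16 above 0 and 3 at least 1.5-fold higher. These were BNIP3L, P4HA1, a collagen hydroxylase (547 in the control and 923 at 24 h), and MXI1, a repressor that opposes MYC (1601 in the control and 2552 at 24 h). The glycolysis list, which shares targets with it, had a median of -0.043 and changed sign with quantile normalization (0.044). EPAS1, the gene of the factor HIF-2alpha, read 341 in the control and 607, 784 and 727 at 8, 16 and 24 h.

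**Figure D3:**
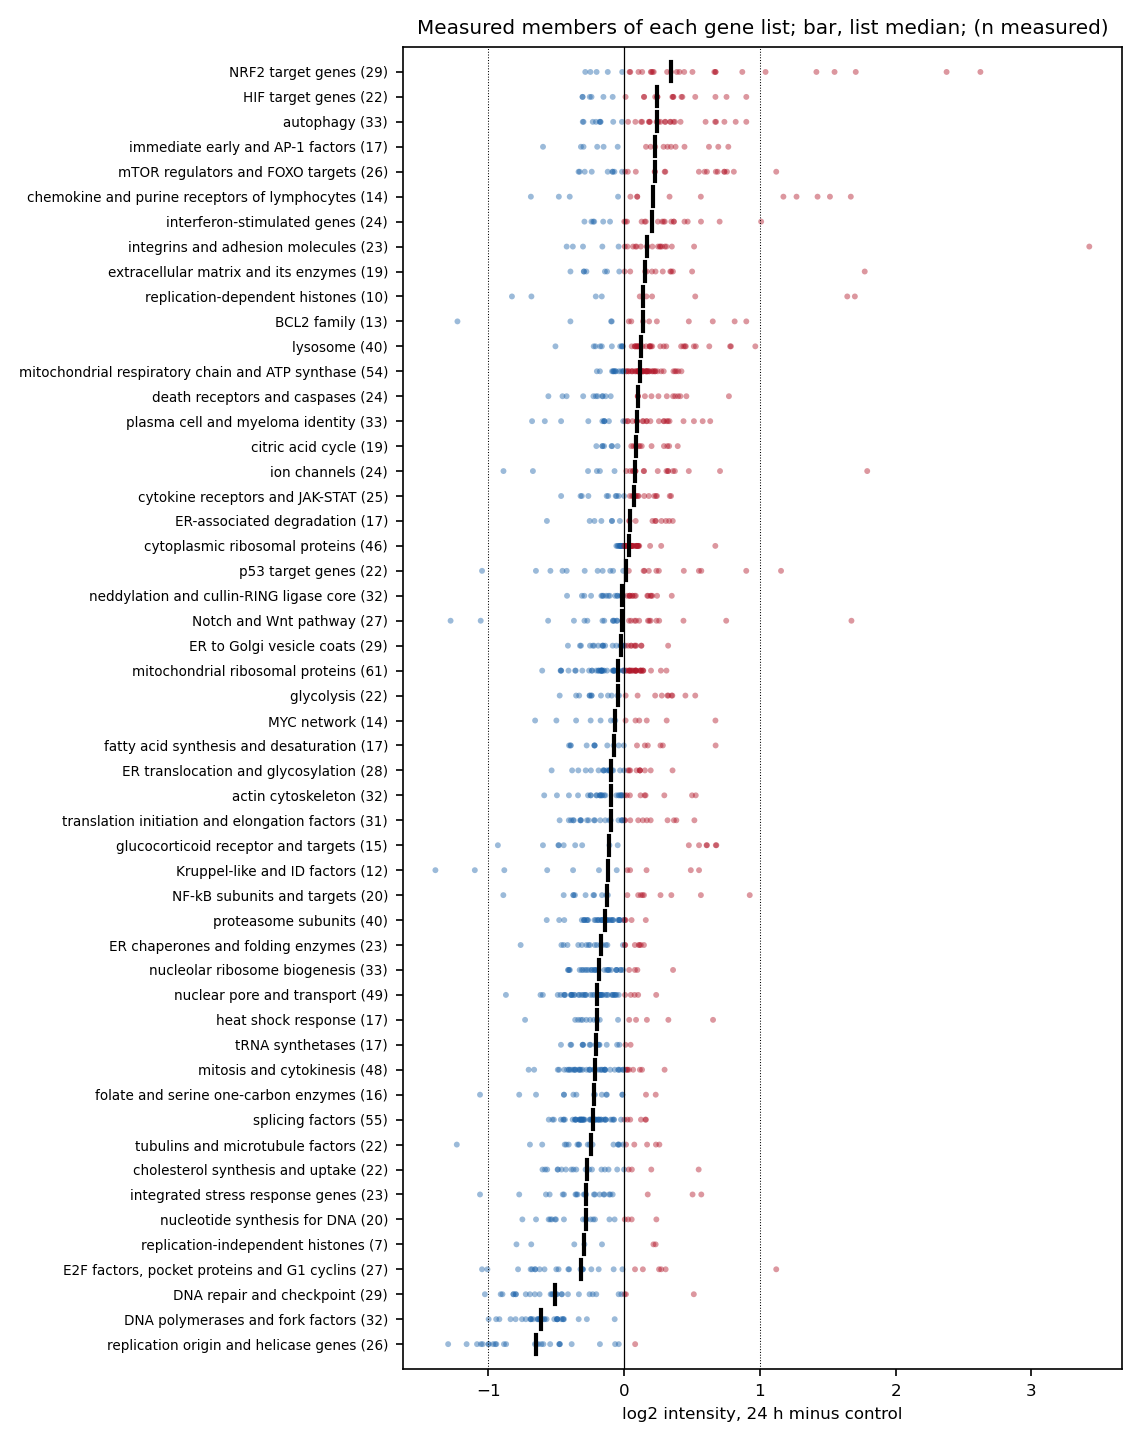
The log2 difference at 24 h of each measured member (point) of the gene lists with at least 5 measured genes, ordered by list median (black bar). The number of measured genes is in brackets, red points lie above 0 and blue below, and dotted lines mark 2-fold. NRF2 targets are at the top (median 0.35) and the replication origin and helicase genes at the bottom (median -0.65).

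DNA replication genes had the lowest medians of the lists. The origin and helicase genes load and fire the replicative helicase, and 25 of the 26 measured were below 0, with 6 at least 2-fold lower, 17 at least 1.5-fold lower and a median of -0.65. The 6 were MCM5, GINS2, CDC6, MCM2, MCM6 and CDC45. The helicase itself is a ring of MCM2 to MCM7. MCM5 read 2532 in the control and 2427, 1285 and 1031 at 8, 16 and 24 h, and its second probe set stood at -1.23. MCM6 read 5770.4 in the control and 4891, 3171 and 2804 at 8, 16 and 24 h, and was the lower gene with the highest control intensity. At 8 h MCM5 stood at -0.061 and MCM6 at -0.24, and both were lower on the 16 and 24 h arrays. MCM3 (-0.997), MCM7 (-0.96) and MCM4 (-0.87) were a little under 2-fold. GINS2 and CDC45 complete the active helicase. GINS2 read 838 in the control and 375 at 24 h, and CDC45 1071 in the control and 535 at 24 h. CDC6, which loads the ring, read 987 in the control and 822, 437 and 465 at 8, 16 and 24 h. CDT1, its partner and a substrate of the ligases that MLN4924 blocks, read 422 in the control and 394, 269 and 219.8 at 8, 16 and 24 h. GMNN, the inhibitor of CDT1, stood at -0.59. Of the origin recognition complex, ORC1, the subunit that varies with the cell cycle, stood at -0.89, ORC6 at -0.39, and ORC2, ORC5 and ORC4 near 0 (-0.066, -0.039 and 0.081). A second probe set of ORC4 had the opposite sign (-0.10).

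**Figure D4:**
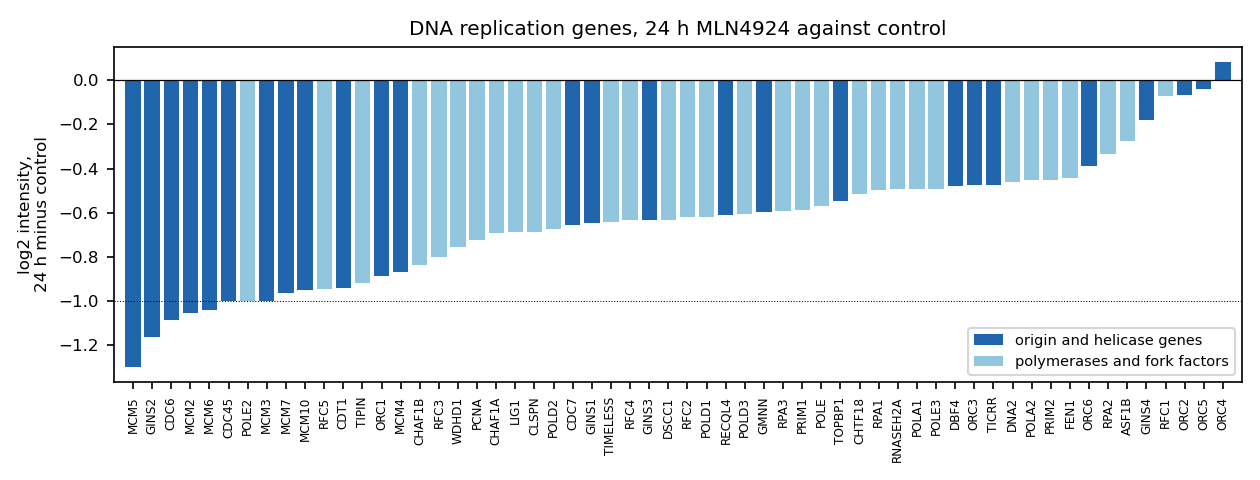
The log2 difference at 24 h of the 26 origin and helicase genes (dark bars) and the 32 polymerase and fork genes (light bars), from the lowest to the highest, with a dotted line at 2-fold lower. MCM5 is at -1.30 and ORC4 alone lies above 0 (0.081).

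Genes of the copying machinery behind the helicase stood lower as well. All 32 measured polymerase and fork genes were below 0, 19 were at least 1.5-fold lower and none 2-fold, with a median of -0.61. POLE2, a subunit of the leading-strand polymerase, read 418 in the control and 209 at 24 h, and RFC5, of the loader of the sliding clamp, 451 in the control and 235 at 24 h. PCNA, the clamp, read 7547 in the control and 7588, 5116 and 4567 at 8, 16 and 24 h. CHAF1B, a chaperone that puts histones on new DNA, read 763 in the control and 427 at 24 h, and TIPIN, which steadies stalled forks, 1126 in the control and 596 at 24 h. Genes of enzymes that make DNA precursors were lower too, with 16 of 20 below 0, 2 at least 1.5-fold lower and a median of -0.28. The thymidine enzymes TK1 (1412 in the control and 839.8 at 24 h) and TYMS (8759 in the control and 5586 at 24 h) were those 2. RRM1 and RRM2, the subunits of ribonucleotide reductase, stood at -0.50 and -0.51, and RRM2B, the subunit that serves repair, at 0.24.

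Promoters of 5 genes are shown because they belong to the lowest groups or regulate them, and because their letters hold a match to TTTCCCGC, TTTCGCGC, TTTGCCGC or TTTGGCGC, words of the E2F factor site. Each line is the 200 bases before the RefSeq start, 5' to 3' on the gene's strand, in GRCh38.p14, with the matches on either strand in capitals. In MCM6 each run of 12 capitals holds overlapping matches on both strands. The stretches are MCM6 at chr2:135876444-135876643 on the minus strand, MCM3 at chr6:52284743-52284942 on the minus strand, GINS2 at chr16:85688955-85689154 on the minus strand, CDT1 at chr16:88803589-88803788 on the plus strand and E2F2 at chr1:23531234-23531433 on the minus strand.
MCM6: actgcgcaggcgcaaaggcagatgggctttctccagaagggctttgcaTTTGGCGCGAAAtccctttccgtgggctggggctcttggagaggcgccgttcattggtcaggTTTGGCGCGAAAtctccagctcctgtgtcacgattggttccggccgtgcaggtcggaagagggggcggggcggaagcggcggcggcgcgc
MCM3: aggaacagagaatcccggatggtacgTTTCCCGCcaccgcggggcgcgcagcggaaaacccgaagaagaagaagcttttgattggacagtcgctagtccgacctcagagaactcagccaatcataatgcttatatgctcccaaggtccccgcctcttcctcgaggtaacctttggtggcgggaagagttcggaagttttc
GINS2: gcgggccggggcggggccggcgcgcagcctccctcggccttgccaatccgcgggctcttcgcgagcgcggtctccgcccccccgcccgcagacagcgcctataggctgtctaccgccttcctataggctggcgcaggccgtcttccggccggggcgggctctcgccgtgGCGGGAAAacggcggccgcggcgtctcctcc
CDT1: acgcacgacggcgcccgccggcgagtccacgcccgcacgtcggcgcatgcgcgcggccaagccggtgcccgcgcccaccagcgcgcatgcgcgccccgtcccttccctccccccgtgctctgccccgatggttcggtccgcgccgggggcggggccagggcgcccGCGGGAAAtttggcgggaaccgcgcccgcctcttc
E2F2: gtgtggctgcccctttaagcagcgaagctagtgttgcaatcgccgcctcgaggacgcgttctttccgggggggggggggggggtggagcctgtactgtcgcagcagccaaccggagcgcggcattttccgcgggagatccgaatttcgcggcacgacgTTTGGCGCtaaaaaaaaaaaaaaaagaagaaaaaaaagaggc
Within 250 bases before the start, such a word stood in 8 of the 30 promoters listed for 22 origin and helicase genes (26.7%) and in 7 of the 33 of polymerase and fork genes (21.2%). It stood in 4.06% of the promoters of measured genes and in 2.79% of all promoters. Of the 25 promoters of the genes at least 2-fold lower 6 held one (24%), of the 83 of the 2-fold higher genes 3 (3.61%), of the 53 of mitosis genes 3 (5.66%) and of the 29 of NRF2 targets 0.

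The genes that regulate the G1 to S step were mostly lower. Of 27 E2F factors, pocket proteins and G1 cyclins 21 were below 0 and 9 at least 1.5-fold lower, with a median of -0.32. The largest difference of the list was on the other side, CCNG2 at 1.12, which is also counted among the FOXO targets. It was the only 1 at least 1.5-fold higher. E2F2, an activator of S phase genes, read 1366 in the control and 1046, 704 and 679 at 8, 16 and 24 h, with a second probe set at -0.80 and a median over both of -0.91. E2F1 stood at -0.50. The phosphatase gene CDC25A (-0.78) and the cyclin gene CCNE2 (-0.69), which push cells into S phase, were lower. CCND2, the D cyclin of this line, read 11264 in the control and 7149, 7098 and 7039.9 at 8, 16 and 24 h, and its other probe sets ranged from -0.97 to -0.79. CDKN1A, which encodes the cycle inhibitor p21, read 1324 in the control and 1092, 834 and 641 at 8, 16 and 24 h, lower on each treated array than in the control. CDKN1B, the gene of p27, stood at 0.14 and the pocket protein gene RBL2 at 0.31.

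Repair genes stood lower, and mitosis genes nearer to the control. Of 29 DNA repair and checkpoint genes 26 were below 0, 11 were at least 1.5-fold lower and UHRF1 was 2-fold lower, with a median of -0.51. UHRF1, which guides DNA methylation after replication, read 2681 in the control and 1317 at 24 h. The checkpoint kinase gene CHEK1 read 684 in the control and 368 at 24 h, and the Fanconi anaemia genes FANCM and FANCE stood at -0.91 and -0.82, the first with a 24 h value below the array median. ATM, the kinase that senses double-strand breaks, was the highest of the list at 0.51. PSMC3IP, a partner of the recombinases, read 1057 in the control and 706, 471 and 473 at 8, 16 and 24 h. Of 48 mitosis and cytokinesis genes 40 were below 0, 2 at least 1.5-fold lower and none 2-fold, with a median of -0.22. NCAPH, a condensin subunit, stood at -0.66 and the kinesin gene KIF20B at -0.70, while KIF20A, another kinesin, was the highest at 0.30. The kinetochore gene CENPK, outside that list, read 1004 in the control and 438 at 24 h.

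Genes of chromatin and spindle proteins that a dividing cell needs in bulk were mixed or lower. H2BC12, a histone H2B gene, read 269.8 in the control and 237, 494 and 876 at 8, 16 and 24 h, lower than the control at 8 h and higher later. H2AC6, a histone H2A gene, stood at 1.64, with a control value below the array median, whereas the linker histone gene H1-2 read 1384 in the control and 780.3 at 24 h. The 10 measured replication-dependent histone genes had a median of 0.14, which turned to -0.025 with a filter at the 75th percentile of probe set means and to -0.022 without probe sets named _x_at or _s_at. Of the 35 genes of that list 17 were below the filter, and histone genes are so alike that their probe sets may not tell them apart. H2AX, the variant that marks DNA breaks, stood at -0.79, with its other probe sets at -0.22 and 0.045, and the linker histone gene H1-10 at -0.68. Of 22 tubulin and microtubule genes 17 were below 0, with a median of -0.24. TUBB2B read 239.7 in the control and 102 at 24 h and its near-identical neighbour TUBB2A 218 in the control and 135 at 24 h, and it is not known how far their probe sets cross-react. STMN1, which unravels microtubules, read 1601 in the control and 1054 at 24 h. TUBA1B, a major alpha tubulin, read 21523 in the control and 16026 at 24 h.

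Genes of splicing, nuclear transport and ribosome building were mostly below 0. Of 55 splicing factor genes 49 were below 0, none was 1.5-fold different, and the median was -0.23. U2AF2, which finds the 3' splice site, read 1759 in the control and 1197 at 24 h, SNRPF, a core particle protein, 3551 in the control and 2462 at 24 h and SNRPA, of the U1 particle, 1876 in the control and 1310.3 at 24 h. Of 49 nuclear pore and transport genes 44 were below 0, with a median of -0.20 and 3 at least 1.5-fold lower, the nucleoporin genes NUP58 (-0.87), NUP155 (-0.62) and NUP93 (-0.60). Of 33 nucleolar genes that build ribosomes 29 were below 0, with a median of -0.19 and none 1.5-fold different. RRS1 (-0.41), MRTO4 (-0.41) and NAT10 (-0.40) were among the lowest, and TSR1 the highest (0.36, but -0.55 to -0.25 in its other probe sets). MYC stood at -0.065. Ribosomal protein genes were near 0, with a median of 0.035 over 46 genes that became -0.013 with arrays centred on their medians.

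Stress response, tRNA synthetase, ER chaperone, proteasome and cholesterol lists had medians below 0. Of 23 genes of the integrated stress response, the programme for scarce amino acids and misfolded protein, 20 were below 0, with a median of -0.28. PSAT1, of serine synthesis, read 1022 in the control and 598 at 24 h, ASNS, asparagine synthetase, 1669.9 in the control and 1142 at 24 h, and ATF4, the factor that drives them, stood at -0.28. ALDH1L2, a folate enzyme of mitochondria, read 198 in the control and 95 at 24 h, the second value just below the array median. EIF2AK4, the kinase GCN2 that starts the response, read 499.9 in the control and 582, 1206 and 1126 at 8, 16 and 24 h, with a second probe set at 0.20. Of 17 tRNA synthetase genes 15 were below 0, with a median of -0.21, led by AARS1 (-0.47) and GARS1 (-0.39). Of 23 ER chaperone genes 16 were below 0, with a median of -0.17. CRELD2, a small ER protein made under folding stress, read 1485 in the control and 875 at 24 h, HSP90B1 stood at -0.46 and HSPA5, the chaperone BiP, at -0.16. Of 40 proteasome genes 35 were below 0, with a median of -0.14, the assembly chaperone PSMG1 lowest at -0.57. The 17 genes of ER-associated degradation, which clears misfolded protein from the ER, had a median of 0.041 with 10 above 0, which became -0.0077 with centred arrays, and ranged from DERL3 (-0.57) to HERPUD1 (0.36). The 17 heat shock genes had a median of -0.20, with DNAJB1 at -0.73 and DNAJB4 at 0.66. Cholesterol genes had a median of -0.27, with 18 of 22 below 0 and the lowest SREBF1, a lipid transcription factor (-0.60), and LSS, which closes the sterol rings (-0.58). Respiratory chain genes were on the other side, with 42 of 54 above 0, a median of 0.11 and none 1.5-fold different. The highest were NDUFB5 of complex I (0.42) and SDHD of complex II (0.40).

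Transcription factor genes, and immediate early genes of other kinds, went both ways. Of the 27 immediate early and AP-1 genes listed 7 lay below the limit, FOS, FOSB and EGR1 among them. A further 3 had no probe set assigned to them alone. Of the 17 measured 11 were above 0, with a median of 0.23, 3 at least 1.5-fold higher and 1 lower. The 3 were MAFF, a partner of NRF2 (245 in the control and 418 at 24 h), BTG1 and DUSP6, a phosphatase that shuts off ERK kinases (1072 in the control and 1653 at 24 h). Single factors were among the lowest genes. KLF2, a factor that holds lymphocytes at rest, read 706 in the control and 301, 286 and 269 at 8, 16 and 24 h. HES1, a repressor that Notch switches on, read 392 in the control and 163, 189.6 and 162 at 8, 16 and 24 h. In both the 8 h value was already close to that at 24 h. HES6, a relative that opposes HES1, read 2452 in the control and 2546, 1443 and 1179 at 8, 16 and 24 h, near the control at 8 h. ID3, which blocks basic helix-loop-helix factors, read 403 in the control and 188 at 24 h, and ID1 185 in the control and 100.4 at 24 h. The 12 measured Kruppel-like and ID genes had a median of -0.12, which turned to 0.024 without probe sets named _x_at or _s_at, with 5 genes left. Other factors were higher, such as BHLHE41, a repressor of the clock (720.1 in the control and 1632 at 24 h, but -0.095 and 0.53 in its other probe sets), and SATB1, which folds chromatin in lymphocytes (203 in the control and 458 at 24 h). CDCA7, which helps to remodel chromatin, read 887 in the control and 523, 280.4 and 273 at 8, 16 and 24 h, with a second probe set at -1.07. CRYBB1, a lens crystallin gene, read 1840.4 in the control and 1340.4, 618 and 480.1 at 8, 16 and 24 h, and MAL2, of vesicle traffic, 913 in the control and 676, 337 and 298 at 8, 16 and 24 h. In these 3 the 8 h value lay between the control and the later arrays.

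Cell death genes went both ways. Of 13 BCL2 family genes 9 were above 0, 3 at least 1.5-fold higher and 1 lower, with a median of 0.14. PMAIP1, whose product NOXA promotes cell death by binding MCL1, read 434 in the control and 322, 217 and 185 at 8, 16 and 24 h, with a second probe set at -1.17. BMF, another such sensitiser, read 709 in the control and 1247 at 24 h, and BCL2, which blocks death, 964 in the control and 1515 at 24 h, with its other probe sets at -0.12 and 0.022. MCL1 stood at 0.24 and BCL2L11, the gene of BIM, at 0.48. CASP4, an inflammatory caspase, read 325 in the control and 555 at 24 h. The 22 p53 targets had a median of 0.014, with 11 above and 11 below 0, and became -0.034 with centred arrays. Beside CDKN1A, DDB2, of ultraviolet damage repair, stood at -0.65 on the lower side, and the kinase gene PLK2 at 0.90 on the higher.

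Inflammatory and hormone response groups were mixed. The 20 NF-kB subunits and targets had a median of -0.13, with 11 below 0. The chemokine genes of that list were apart from each other, CCL5 reading 675 in the control and 364 at 24 h and CCL4 452 in the control and 858 at 24 h. NFKBIA, the inhibitor of the pathway and one of its targets, stood at -0.45, but at -0.064 in its second probe set. Of 24 interferon-stimulated genes 18 were above 0, with a median of 0.20. OAS1, a sensor of double-stranded RNA, read 286 in the control and 577 at 24 h, with a second probe set at 1.24. IFIT5, a binder of viral RNA, read 331 in the control and 538 at 24 h, but its second probe set stood at 0.097. The line is known for its response to dexamethasone, and glucocorticoid targets had a median of -0.11, with 4 of 15 at least 1.5-fold higher and 2 lower. TSC22D3 (GILZ) read 553 in the control and 842 at 24 h and FKBP5, the receptor's co-chaperone, 1205 in the control and 796 at 24 h, on opposite sides. The second probe set of TSC22D3 stood at 0.055.

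The target pathway and the plasma cell programme differed little. The 32 measured genes of NEDD8 conjugation and the cullin-RING ligase core had a median of -0.012, 15 above and 17 below 0, and none was 1.5-fold different. RBX1, the RING subunit that most cullins share, was the lowest at -0.42 and CUL4B, a scaffold, the highest at 0.35. Of the 33 measured plasma cell genes 23 were above 0, with a median of 0.094 and none 2-fold different. EAF2, a partner of elongation factors (0.63), LY9, a surface receptor of the SLAM family (0.58), and CD28, a costimulatory receptor (0.51), were the highest. CCND2 and NSD2, a histone methyltransferase (-0.58), were the lowest, and MZB1, a chaperone of antibody secretion, stood at -0.46.

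The differences were spread over all levels of signal. The genes were put in 5 classes of equal size by mean probe set signal, which ranks probe sets and not RNA amounts of different genes. From the lowest to the highest class, 9, 15, 15, 14 and 11 genes were at least 2-fold higher and 3, 4, 4, 8 and 5 at least 2-fold lower. The median difference went from 0.055 in the lowest class to -0.020 in the highest. The SD between probe sets of 1 gene went from 0.22 to 0.16, over 322 genes in the lowest class and 1580 in the highest. It compares probe sets on the same 2 arrays and holds no spread between arrays or cultures. The SD of the difference over genes was 0.26 in the lowest class, 0.32 in the third and 0.27 in the highest. In the lowest class the largest differences on the higher side, beside H2AC6, were those of NMU and BMPR1B. NMU, a neuropeptide, read 73.4 in the control and 158 at 24 h. BMPR1B, a receptor of bone morphogenetic proteins, read 85.6 in the control and 184 at 24 h. Both had control values below the array median. On the lower side of that class the largest were TUBB2B (-1.23), FUT9 (-1.18) and ALDH1L2 (-1.06). In the highest class the largest differences were CXCR3, SRXN1 and RGS1 on the higher side. On its lower side they were MCM5, HES6 and MCM2 (2740.1 in the control and 1319 at 24 h). Among genes of very strong signal, HMGN2, a nucleosome-binding protein, had the largest loss in intensity units (17282 in the control and 11732 at 24 h, -0.56). VIM, vimentin, had one of the larger gains (6614 in the control and 9357 at 24 h, 0.50).

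**Figure D5:**
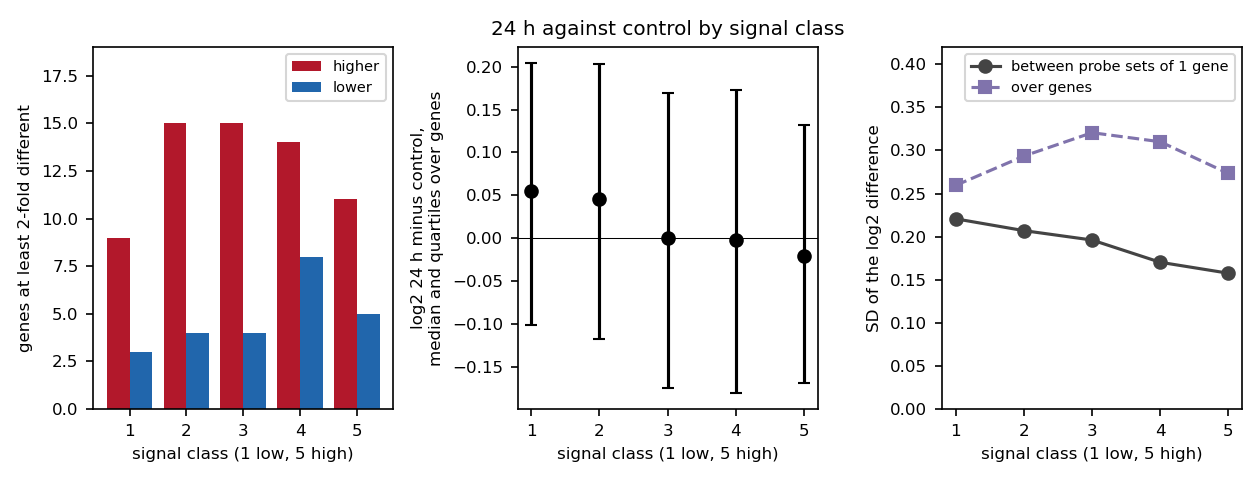
The comparison by class of mean probe set signal, from 1 (lowest) to 5 (highest). The left panel counts genes at least 2-fold higher (red) and lower (blue), the middle panel gives the median log2 difference with bars from the lower to the upper quartile over genes, and the right panel gives the SD of the difference between probe sets of 1 gene and over genes. The SD between probe sets goes from 0.22 in class 1 to 0.16 in class 5.

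Genes of different kinds were also counted. Protein-coding genes were 11478 of those measured, with a median of 0.010, 61 of them at least 2-fold higher and 24 lower. Long non-coding RNA genes were 715, with a median of 0.075, 465 (65%) above 0, 3 at least 2-fold higher and none lower. Of all measured genes 52.6% were above 0 and 0.514% at least 2-fold higher. The count of 3 is no larger than that second share gives. Signal classes 1 and 2, the lowest, had medians of 0.055 and 0.046, and the part of signal level was not tested. The 3 RNA genes were LINC00324 (137 in the control and 158, 398 and 401 at 8, 16 and 24 h), LINC-PINT (481 in the control and 399.7, 859 and 1098 at 8, 16 and 24 h) and MIAT (1266 in the control and 2063, 2432 and 2537 at 8, 16 and 24 h). LINC-PINT, an RNA that p53 induces, was lower at 8 h than in the control and higher later, and MIAT was higher on each treated array, with other probe sets from 0.22 to 1.11.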

How the data were processed

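The values are linear intensities deposited by the authors, 1 per probe set and array (54675 probe sets, 4 arrays, 1 per group). Per the labels' protocols, total RNA was extracted with Trizol and made into biotin-labelled cRNA for Affymetrix arrays. How probe signals were summarised, background-corrected and scaled is not given in the sources used here, and no detection calls were used. The array medians differed little, so no normalization was added. Groups came from the sample labels, and 2 arrays, control and 24 h, entered the comparison. With 1 array per group the number of arrays limits the precision and no test was run.

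Probe sets were joined to genes through the platform annotation, which can be old. It gave 1 gene for 41097 probe sets, of which 41043 matched the RefSeq table, and several genes for 1801, and 11777 were not listed. Values under 48.4, the 25th percentile, were set to it before log2 was taken, and 0 measured genes lay at the floor on either array. Measured genes had a geometric mean intensity above 93.9 over the 4 arrays. Genes at least 2-fold different were counted, and medians and counts were taken over 58 lists. The lists overlap, so that BNIP3L, for example, is counted among autophagy, hypoxia-inducible and BCL2 family genes. Members, lists and the rule for named genes were chosen with earlier results of these data known. The rule took the 20 highest and 20 lowest differences, the 3 highest and 3 lowest of each of 5 signal classes, the 5 members of each list farthest from 0, all members of lists of 8 or fewer measured genes, and the 10 largest gains and losses in intensity units. Other genes named were chosen after their values were seen. Promoter sequences are RefSeq's of GRCh38.p14, matched by symbol for 10038 measured genes, and were searched for exact letters on both strands. The fold step was tested on simulated data, and the list step was not. Alternatives were taking a gene as the median of its probe sets, other filters, floors and scalings, and leaving out probe sets named _x_at or _s_at. Python 3.11.15, pandas 2.3.3, numpy 2.4.6 and matplotlib 3.10.9 were used.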

Additional observations from a re-analysis of the deposited data

Results flagged for a closer look

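Signal outside the measured genes was also present at 24 h. Among probe sets above the filter that the annotation assigns to several genes, 8 were at least 2-fold higher than on the control array and 2 at least 2-fold lower. Among those the annotation does not list, 6 were at least 2-fold higher and 7 lower. The 24 poly-A control probe sets had a median difference of 0.21, and 24 of 24 were above 0, while 3 of the 18 hybridisation control probe sets were. The part of this in the differences of the genes was not tested.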

How the results depend on the processing

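The counts of genes at least 2-fold different were 64 higher and 24 lower as reported, and 355 and 287 at 1.5-fold. Without probe sets named _x_at or _s_at, 14 genes were at least 2-fold lower among 9563 genes tested, and 50 higher. With each array centred on its median, 57 genes were higher and 35 lower, and with genes as medians of their probe sets 52 and 24, of which 51 and 22 were among those reported. That choice put 6 genes of the naming rule under 2-fold, with GDPD1 at 0.91 (1.54 as reported) and DYRK2 at -0.79 (-1.07) beside AKR1C1, PDE4B, TP53INP1 and E2F2. A filter at the 75th percentile left 43 and 17, and with no filter there were 68 and 25. The median of replication-dependent histones turned to -0.025 with a filter at the 75th percentile (4 genes left) and to -0.022 without probe sets named _x_at or _s_at (6 left), and that of Kruppel-like and ID factors to 0.024 in the second case (5 left). No paired analysis was possible because each group holds 1 array and the labels give no replicate numbers, and for the same reason no array could be left out. Genes near the array median of about 92.2 cannot be told from background here, and differences between cultures were not measured.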
